A study of Mus musculus with 30 samples.

Results

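The atrial genes and natriuretic peptides described here are 9 of the 36103 genes in the deposited count table, and they were taken by gene symbol alone: Nppa, Nppb, Myl4, Myl7, Bmp10, Gja5, Dkk3, Pam and Nr2f2. RNA sequencing reads had been counted per gene in the heart, the gastrocnemius (a calf muscle), the diaphragm (the main muscle of breathing) and the liver of male mice aged 5 weeks on a pure 129Pas background. The mice were Mtm1-/y knock-outs, labelled Mtm1KO, which lack a functional copy of the X-linked gene for the phosphoinositide phosphatase myotubularin, or their wild-type (WT) littermates; the line models X-linked myotubular myopathy, a congenital muscle disease. Each library came from 1 tissue of 1 mouse, with 4 WT and 4 Mtm1-/y hearts, 4 and 4 gastrocnemius muscles, 4 and 3 diaphragms, and 3 and 4 livers. The labels name the heart and no chamber, so that atria and ventricles were not told apart.

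Heart muscle cells of the atria and of the ventricles carry different sets of contractile and secreted proteins. Atrial cells make an atrial pair of myosin light chains and store the hormone ANP in secretory granules, from which it is released when the atria are stretched, acting on kidney and vessels to lower blood volume and pressure. In a healthy adult heart the ventricles contain little of these transcripts, and a stressed ventricle turns on Nppa and Nppb again, which is why both are read as markers of cardiac strain.

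The level of a gene is given as normalised CPM (counts per 1000000 counted reads of the library), scaled by the trimmed mean of M values (TMM). Libraries held 25244426 to 32028964 counted reads in heart, 29641256 to 38588917 in gastrocnemius, 24873817 to 44289343 in diaphragm and 26965151 to 41147747 in liver. Mtm1 itself lay between 21.1 and 26.9 CPM in the WT hearts and between 3.49 and 4.11 CPM in the Mtm1-/y hearts, so that each library matched its labelled genotype. The summed level of cardiomyocyte markers was 44278 to 56059 CPM in the 8 hearts. WT heart 4 stood apart from the other hearts: it had the highest level of each of the 9 genes and the lowest level of the ventricular light chain Myl2, 1825 CPM against 5729 to 7230 CPM in the other 7. The comparisons of the genotypes in heart are given with and without this library and Mtm1-/y heart 2, and the WT means without WT heart 4.

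Nppa and Nppb are neighbours on mouse chromosome 4, both on the plus strand, with 13516 bases between them in GRCm38, and yet they varied differently across the hearts (see the levels given after the sequences). The promoter windows of 4 members are shown, those whose levels carried the results: the peptide pair, the atrial light chain Myl7 and the secreted factor Bmp10. Each window runs from 250 bases before to 50 bases after the RefSeq gene start in GRCm38.p6 and is written 5′ to 3′ on the strand of the gene. Such windows were matched for 8 of the 9 members, Dkk3 being the member without an entry. Capitals mark each match, on either strand, to GATAA (the core bound by GATA factors), CATTCC (bound by TEAD factors), AAGTG (the core of NKX2-5 sites), TATAAA (the TATA box) or AGGTCA (the nuclear receptor half-site, which NR2F2 can bind); no matches overlapped. The Nppa window lies at chr4:148000472-148000771 (+), the Nppb window at chr4:147985650-147985949 (+), the Myl7 window at chr11:5898733-5899032 (-) and the Bmp10 window at chr6:87428744-87429043 (+).
Nppa: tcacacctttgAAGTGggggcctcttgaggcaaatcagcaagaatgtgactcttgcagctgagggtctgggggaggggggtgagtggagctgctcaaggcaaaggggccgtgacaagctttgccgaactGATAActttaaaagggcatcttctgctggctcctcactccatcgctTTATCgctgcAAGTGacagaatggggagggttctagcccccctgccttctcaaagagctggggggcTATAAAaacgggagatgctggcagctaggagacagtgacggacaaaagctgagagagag
Nppb: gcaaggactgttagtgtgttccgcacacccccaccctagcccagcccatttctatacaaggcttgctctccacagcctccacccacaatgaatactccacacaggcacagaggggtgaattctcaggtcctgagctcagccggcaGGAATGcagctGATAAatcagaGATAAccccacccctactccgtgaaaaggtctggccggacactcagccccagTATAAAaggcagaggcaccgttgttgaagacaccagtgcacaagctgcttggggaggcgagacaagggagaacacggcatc
Myl7: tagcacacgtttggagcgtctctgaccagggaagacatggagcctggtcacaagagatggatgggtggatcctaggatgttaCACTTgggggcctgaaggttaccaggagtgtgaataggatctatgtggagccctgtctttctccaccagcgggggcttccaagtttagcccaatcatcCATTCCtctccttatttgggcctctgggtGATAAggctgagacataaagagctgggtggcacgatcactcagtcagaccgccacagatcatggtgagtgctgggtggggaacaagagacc
Bmp10: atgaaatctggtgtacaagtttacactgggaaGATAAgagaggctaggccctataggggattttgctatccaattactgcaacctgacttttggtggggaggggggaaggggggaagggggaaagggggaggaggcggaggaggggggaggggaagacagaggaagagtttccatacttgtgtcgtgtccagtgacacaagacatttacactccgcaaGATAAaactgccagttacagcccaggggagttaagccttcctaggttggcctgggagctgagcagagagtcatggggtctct
GATAA was found 2 times in the windows of Nppa, Nppb and Bmp10 and 1 time in that of Myl7. Of all 32851 windows of this length, 25.4% held it. CATTCC was found 1 time each in the Nppb and Myl7 windows and is present in 14.7% of all windows. AAGTG was found 2 times at Nppa and 1 time at Myl7, against 46.4% of all windows with at least 1 match. Nppa and Nppb each had a TATAAA shortly before the start, a run of letters held by 13.6% of all windows. AGGTCA, held by 16.3% of all windows, was in none of these 4. These are matches of letters, and no binding was measured.

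Across the 8 hearts the levels of the atrial transcripts differed widely between libraries, also within a genotype. In the WT hearts alone the highest Myl7 level was 108-fold the lowest. The spread over all 8 hearts includes any difference between the genotypes. The levels of Myl7, Bmp10 and Myl4 were the 3 most variable of 15238 genes tested in the heart, by the standard deviation of log2(CPM + 1) over the 8 libraries, while the level of Nppb, the other natriuretic peptide, did not follow them. By edgeR no member differed between WT and Mtm1-/y hearts after adjustment for all genes, and by DESeq2 1 did, Bmp10. The sets of values overlapped between the genotypes for all 9 members, where 4.17% of all genes had genotypes that did not overlap.

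Nppa (ENSMUSG00000041616, GRCm38 chromosome 4:148000722-148002079) encodes atrial natriuretic peptide. It was at 1561, 566, 2078 and 16140.3 CPM in WT hearts 1 to 4 and at 125, 2638, 539 and 130.0 CPM in Mtm1-/y hearts 1 to 4. The highest and the next highest level came from different genotypes, WT heart 4 and Mtm1-/y heart 2, and the remaining WT hearts all lay above the remaining Mtm1-/y hearts. Nppb (chromosome 4:147985788-147987205), for brain natriuretic peptide, was at 95.4, 181, 74.8 and 265 CPM in the WT hearts and at 90.9, 72.9, 222 and 136 CPM in the Mtm1-/y hearts. The genotypes were interleaved for Nppb, and Mtm1-/y heart 2, which was high for Nppa, was the lowest of all 8 for Nppb. The highest Nppa level was 129-fold the lowest, against 3.63-fold for Nppb.

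Pam (chromosome 1:97795114-98095646) encodes the enzyme that amidates peptides and is the most abundant membrane protein of atrial granules. It was at 1357.5, 711, 1501 and 5744 CPM in the WT hearts and at 730.1, 1936, 815 and 709 CPM in the Mtm1-/y hearts. The same pair of libraries, WT heart 4 and Mtm1-/y heart 2, were the highest. The lowest level remained above 700 CPM in every heart, so that the range was 8.10-fold.

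Myl7 (chromosome 11:5896637-5898782, minus strand) encodes the regulatory and Myl4 (chromosome 11:104550663-104595753) the essential light chain of atrial myosin. Myl7 was at 721, 39.0, 598 and 4198 CPM in the WT hearts and at 4.13, 1087, 1.11 and 8.19 CPM in the Mtm1-/y hearts. Myl4 was at 695, 43.9, 749 and 4764 CPM in the WT hearts and at 4.55, 1030.1, 4.22 and 10.6 CPM in the Mtm1-/y hearts. For both light chains Mtm1-/y hearts 1, 3 and 4 lay below every WT heart, and Mtm1-/y heart 2 lay above 3 of the 4 WT hearts. The highest level was 3795-fold the lowest for Myl7 and 1130-fold for Myl4.

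Bmp10 (chromosome 6:87428994-87437677) encodes a secreted growth factor of the atrial wall that acts on endothelial cells. It was at 119, 0.407, 145 and 769 CPM in the WT hearts, from 3761, 15, 5192 and 28747 reads. In the Mtm1-/y hearts it was at 0.0306, 3.84, 0 and 0.548 CPM, from 1, 114, 0 and 17 reads. In Mtm1-/y heart 3 the absence of reads allowed a level of up to 0.104 CPM by counting error. WT hearts 1, 3 and 4 were above every Mtm1-/y heart by a wide margin, and the overlap came from WT heart 2, which lay below Mtm1-/y hearts 2 and 4. Dkk3 (chromosome 7:112116017-112159057), for a secreted glycoprotein of the Dickkopf family, was at 105, 6.60, 149 and 554 CPM in the WT hearts and at 3.27, 106, 2.87 and 3.0 CPM in the Mtm1-/y hearts. As for the light chains, Mtm1-/y heart 2 was within the upper WT levels and the other 3 Mtm1-/y hearts were below every WT heart.

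Gja5 (chromosome 3:96904693-97077416), for the gap junction protein connexin 40 of atrial muscle, conduction fibres and arterial endothelium, was at 20.8, 9.77, 16.4 and 60.1 CPM in the WT hearts and at 10.5, 49.0, 10.6 and 12.5 CPM in the Mtm1-/y hearts. Nr2f2 (chromosome 7:70351944-70366735), for the nuclear receptor COUP-TFII that maintains atrial identity and is also made in venous endothelium, was at 14.6, 12.3, 14.2 and 43.7 CPM in the WT hearts and at 10.9, 15.7, 11.7 and 13.9 CPM in the Mtm1-/y hearts. WT heart 4 was highest for both, and below it the genotypes were interleaved. Both genes kept a level near 10 CPM in the hearts that had almost no Myl7.

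Per kilobase of annotated exon, the order of the mean levels in the WT hearts was Nppa, Myl7, Myl4, Nppb, Pam, Dkk3, Bmp10, Gja5 and Nr2f2. The length used was the union of all annotated exons of a gene, which can exceed that of the transcript made in heart. It was 4637 bases for Myl4, 590 for Myl7 and 781 for Nppb, so the order depends on the annotation as well as on the reads. Nppa had 5880.3 ± 8550.2 CPM per kilobase (SD, n = 4) and Myl7 2353.9 ± 3213.3. Each SD was larger than its mean for Nppa, Myl7, Myl4, Dkk3 and Bmp10, and neighbours in this order were not apart by more than their spread. Without WT heart 4 the means were 1621 for Nppa, 767 for Myl7, 149.8 for Nppb and 107 for Myl4, so that Nppb came before Myl4. In the Mtm1-/y hearts the means were 992 CPM per kilobase for Nppa, 466 for Myl7, 167 for Nppb, 88.1 for Pam, 56.6 for Myl4 and 0.246 for Bmp10.

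**Figure D1:**
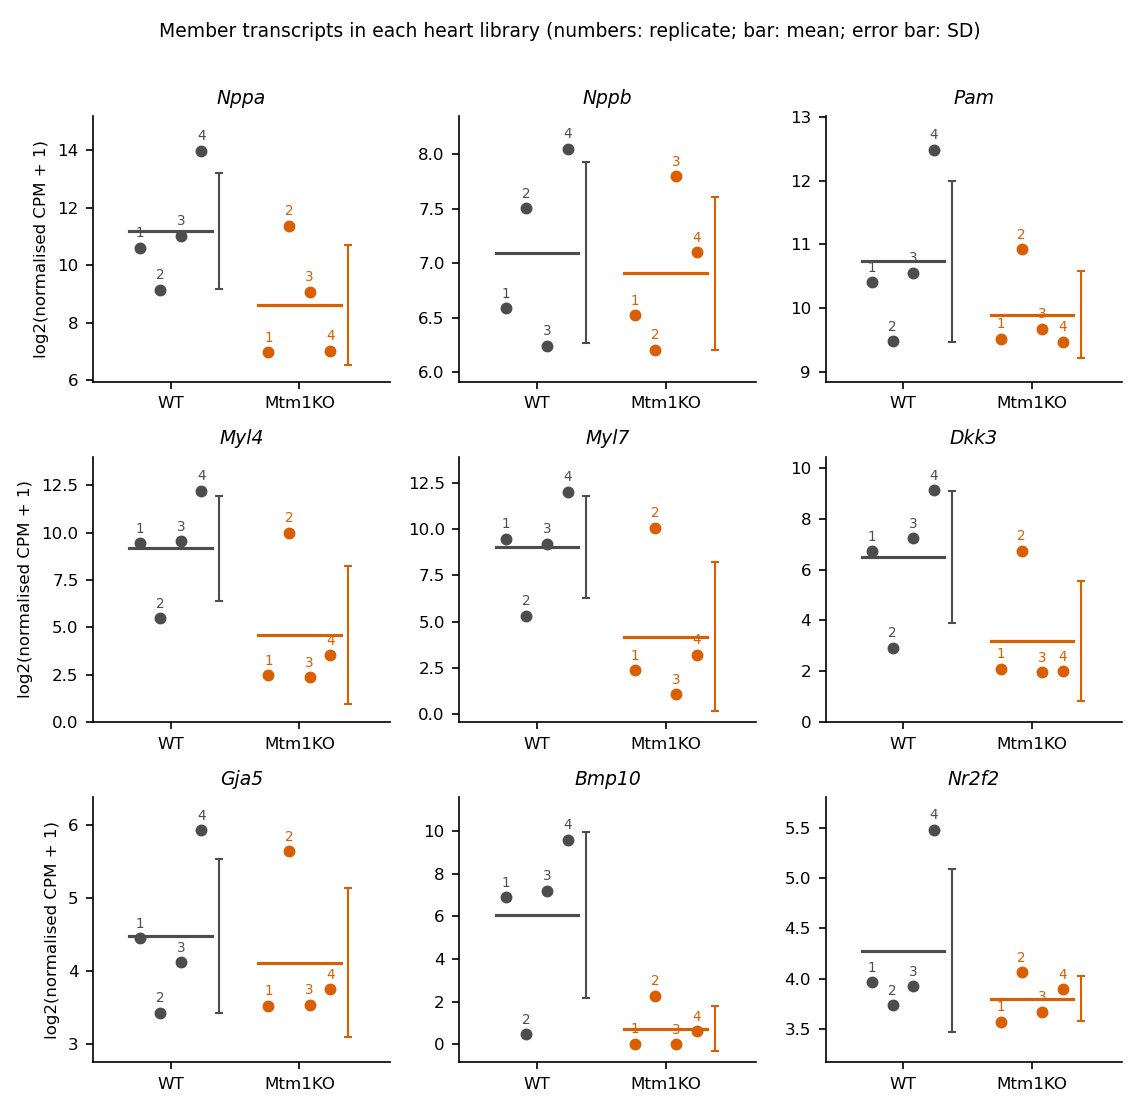
Level of the 9 members in each of the 8 hearts, 1 panel per gene, as log2(normalised CPM + 1); points are libraries labelled with their replicate number, the bar is the mean of the 4 hearts of a genotype and the error bar its SD. WT heart 4 is the highest point in every panel and Mtm1-/y heart 2 stands far above the other Mtm1-/y hearts for Myl4, Myl7 and Dkk3, while the Nppb points of the genotypes are interleaved.

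The comparison of Mtm1-/y with WT hearts asked whether loss of myotubularin changed the atrial and natriuretic transcripts of the heart. Fold changes are Mtm1-/y against WT from edgeR's quasi-likelihood test, and a gene was called where the Benjamini-Hochberg adjusted p was under 0.05 and the log2 fold change was above 1 or below -1. No member was called, where 0.00656% of the genes tested were. Of the members, 1 (Bmp10) had an unadjusted p under 0.05, a level reached by 8.88% of all genes. DESeq2, used as the alternative, called 1 member, again Bmp10, where it called 0.362% of genes. All 9 fold changes were below 0, with a median of -2.35 against -0.00 over all genes. The members are read from the same libraries and their values move together, so their common sign does not count as 9 observations.

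Bmp10 had the widest difference by edgeR, with -7.89 on the log2 scale (SE 1.94, approximate 95% interval -11.70 to -4.09). Its unadjusted p was 0.00276 and its adjusted p 0.546 by edgeR. The intervals given for fold changes were taken from the SE by a normal approximation, which makes them too narrow for so few libraries. By DESeq2 the fold change was -7.88 (SE 1.99) with an adjusted p of 0.0230. The call depends on the tool, and the adjusted p of Bmp10 ranged from 0.0230 to 1.00 over 15 settings.

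Nppa was at -2.58 on the log2 scale (SE 1.27, 95% interval -5.08 to -0.08, adjusted p 0.546 by edgeR). The light chains Myl4 and Myl7 had -2.59 (SE 1.89) and -2.35 (SE 1.98), and Dkk3 had -2.84 (SE 1.5). Their adjusted p values were 0.597, 0.631 and 0.551. Pam had -1.16 (SE 0.63), Nr2f2 -0.71 (SE 0.39), Gja5 -0.39 (SE 0.67) and Nppb -0.25 (SE 0.45), with adjusted p values from 0.552 to 0.823. The intervals of Myl4 and Myl7 span both a large decrease and an increase, so that 4 hearts a genotype could not show a difference in them.

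The size of these differences depended on 2 libraries. Without WT heart 4 the log2 fold change of Nppa was -0.72, of Myl7 -0.73, of Myl4 -0.93, of Pam -0.19 and of Nr2f2 -0.08, and those of Nppb and Gja5 were above 0, at 0.15 and 0.39. Without Mtm1-/y heart 2 the log2 fold change was -8.28 for Myl7 (adjusted p 0.263), -7.93 for Myl4, -6.07 for Dkk3 and -4.28 for Nppa. Bmp10 remained the most changed member without either, at -6.34 without WT heart 4 and at -10.36 without Mtm1-/y heart 2. No member was called by edgeR in any of the 8 fits that left out 1 heart.

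**Figure D2:**
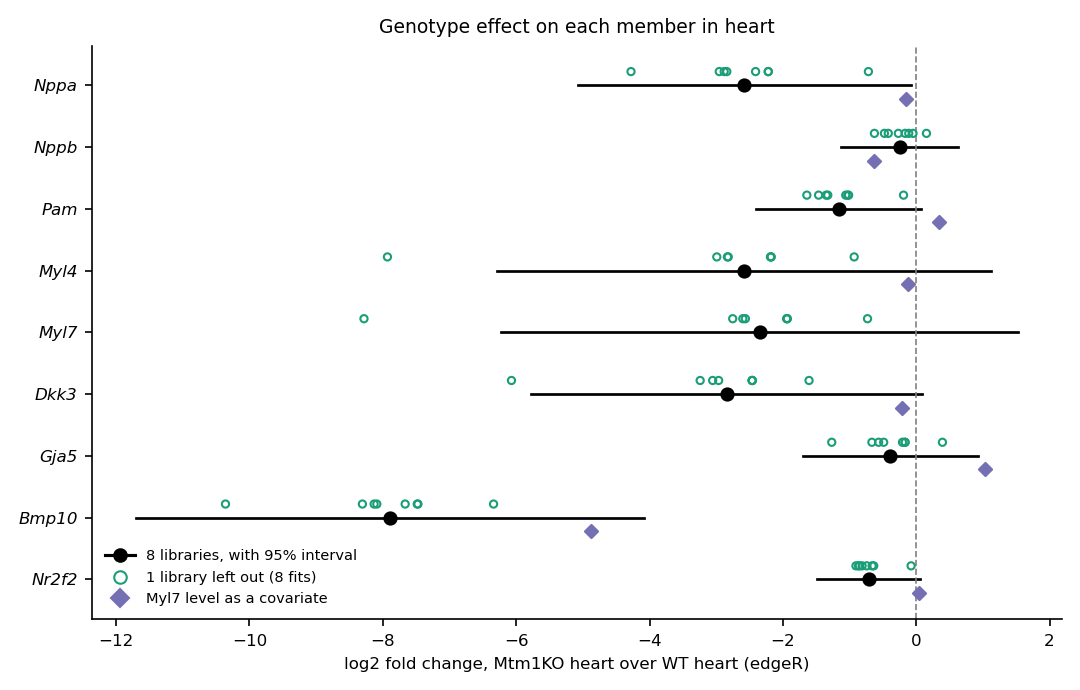
Log2 fold change of Mtm1-/y against WT hearts for each member (edgeR), with its approximate 95% interval as the bar. The intervals use a normal approximation and are too narrow for so few libraries. Small points are the 8 fits that each leave out 1 heart and diamonds are the fit with the Myl7 level as a covariate. The interval of Bmp10 lies furthest from 0, and the points of Myl4 and Myl7 reach below -7 without Mtm1-/y heart 2.

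The members were then compared with Myl7, whose transcript is restricted to atrial muscle in the adult heart, across the 8 hearts on the log2(CPM + 1) scale, with 8 relations tested by exact permutation of the libraries. Of the 8 other members, 7 rose with Myl7 at an adjusted p under 0.05 and Nppb did not. The background is high, since 37.3% of 10172 genes compared with Myl7 in the same way had an unadjusted exact permutation p under 0.05, in either direction. Myl4 followed Myl7 most closely (Pearson's r = 0.996, exact permutation p = 4.96e-05, adjusted p = 0.000397; Spearman's rho = 0.976, exact permutation p = 0.000397), and r was 0.999 without Mtm1-/y hearts 1 and 3, the libraries farthest from the median of Myl7. Dkk3 came next with r = 0.974 (exact permutation p = 0.00062, adjusted p = 0.00248; rho = 0.905, exact permutation p = 0.00456; r = 0.985 without those 2 hearts). Nppa had r = 0.886 (exact permutation p = 0.00300, adjusted p = 0.00681; rho = 0.905, exact permutation p = 0.00456; r = 0.964 without those 2 hearts).

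Bmp10 had r = 0.859 (exact permutation p = 0.00923, adjusted p = 0.0105; rho = 0.881, exact permutation p = 0.00724; r = 0.817 without those 2 hearts). Pam had r = 0.854 (exact permutation p = 0.00489, adjusted p = 0.00681; rho = 0.762, exact permutation p = 0.0368; r = 0.894 without them) and Gja5 r = 0.846 (exact permutation p = 0.00511, adjusted p = 0.00681; rho = 0.833, exact permutation p = 0.0154; r = 0.834 without them). Nr2f2 had r = 0.705 (exact permutation p = 0.00372, adjusted p = 0.00681; rho = 0.952, exact permutation p = 0.00114; r = 0.650 without them). Nppb had r = -0.173 (exact permutation p = 0.667, adjusted p = 0.667; rho = -0.119, exact permutation p = 0.793; r = -0.058 without them). Nppa and Nppb, the adjacent genes with 2 GATAA matches each, thus had different relations to Myl7, although a difference between the correlations was not itself tested.

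The Myl7 levels left a gap of 15.3-fold between WT heart 2 (39.0 CPM) and WT heart 3 (598 CPM), with 4 libraries on each side. If those are taken as separate clusters, each has fewer than 6 libraries, and no correlation is given within them. Within the 4 WT hearts r with Myl7 was 0.998 for Myl4, 0.929 for Nppa and 0.985 for Bmp10, and within the 4 Mtm1-/y hearts it was 0.992, 0.769 and 0.989. These are given as values only. In whole hearts, fewer atrial cells and less RNA per atrial cell cannot be told apart.

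**Figure D3:**
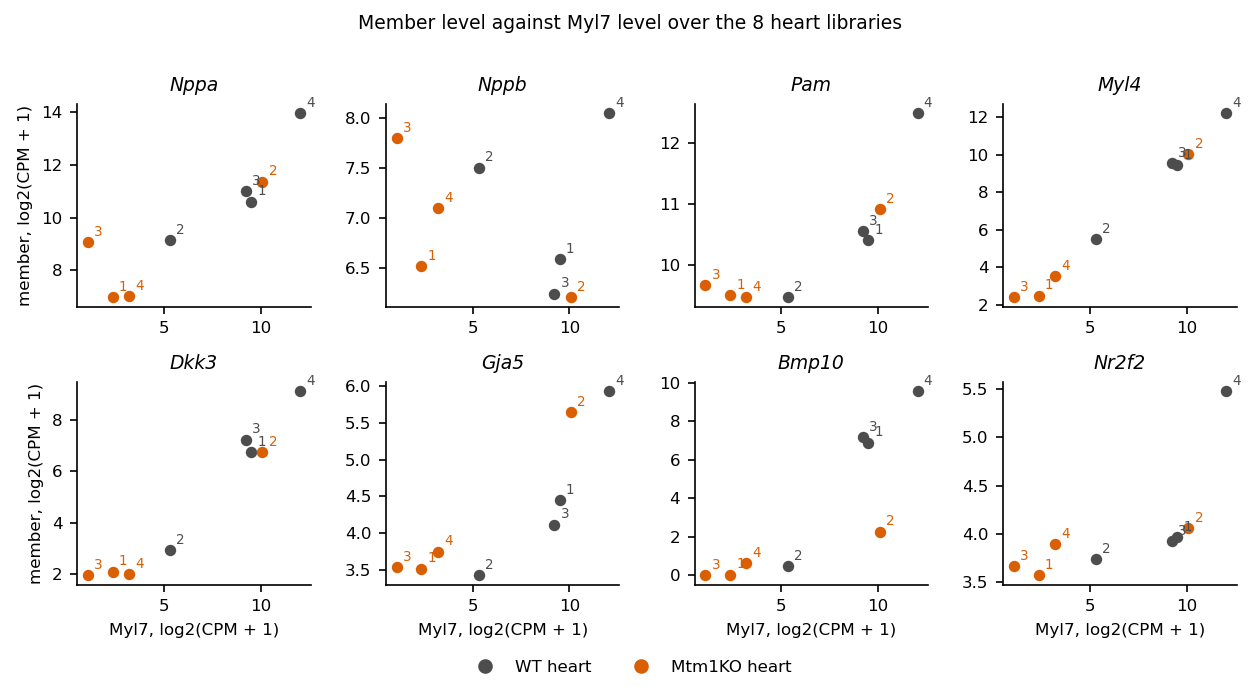
Level of each of the other 8 members against Myl7 in the 8 hearts, both as log2(normalised CPM + 1), with WT and Mtm1-/y libraries in different colours and numbered. Myl4 lies along a straight line (r = 0.996) with both genotypes on it, Bmp10 in Mtm1-/y heart 2 lies far below the WT hearts of like Myl7, and Nppb shows no trend (r = -0.173).

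With the Myl7 level as a covariate in the same edgeR fit, 4 of the 8 genotype differences were near 0: -0.15 for Nppa, -0.12 for Myl4, -0.22 for Dkk3 and 0.04 for Nr2f2 on the log2 scale. Pam was at 0.34 and Gja5 at 1.03 (SE 0.29, unadjusted p = 0.00608), both above 0 where the fit without the covariate had them below 0. Bmp10 remained at -4.88 with an unadjusted p of 0.0084, and Nppb at -0.63. The adjusted p was 1.00 for every member, so none was called in this fit either.

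Bmp10 was the member farthest from 0 in that fit. Its reads were expressed as a share of the reads of Bmp10 and Myl7 together, which does not depend on the scaling of the library. In the WT hearts the share was 14.1% (exact binomial 95% interval 13.7 to 14.6), 1.03% (0.579 to 1.7), 19.5% (19.0 to 19.97) and 15.5% (15.3 to 15.7). In the Mtm1-/y hearts it was 0.735% (0.0186 to 4.03), 0.352% (0.291 to 0.423), 0% (0 to 10.9) and 6.27% (3.70 to 9.85). The intervals cover counting error only. Mtm1-/y heart 2 had more Myl7 than WT hearts 1 and 3 and still had the lowest share apart from the heart with 0 reads, whose interval reaches 10.9%, although the interval of Mtm1-/y heart 1 includes its value. WT heart 2, the WT heart with least Myl7, had a share of the same order as the Mtm1-/y hearts, so the genotypes overlapped.

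The corresponding share for Myl4, of the reads of Myl4 and Myl7 together, was 49.1, 52.9, 55.6 and 53.2% in the WT hearts and 52.5, 48.7, 79.2 and 56.4% in the Mtm1-/y hearts. The light chains therefore kept a nearly constant ratio, apart from Mtm1-/y heart 3, where Myl7 was at 1.11 CPM. Mtm1-/y heart 2 was also low for other atrial transcripts, which were chosen after their values were seen: per 1000 reads of Myl7 it had 1.3 reads of Hamp, for hepcidin, against 5.74 to 23.6 in the WT hearts, and 6.02 reads of Cacna2d2, for a calcium channel subunit, against 11.2 to 74.4. How much of each atrium an RNA sample held is not given by the labels, and its part in the Bmp10 result was not tested.

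**Figure D4:**
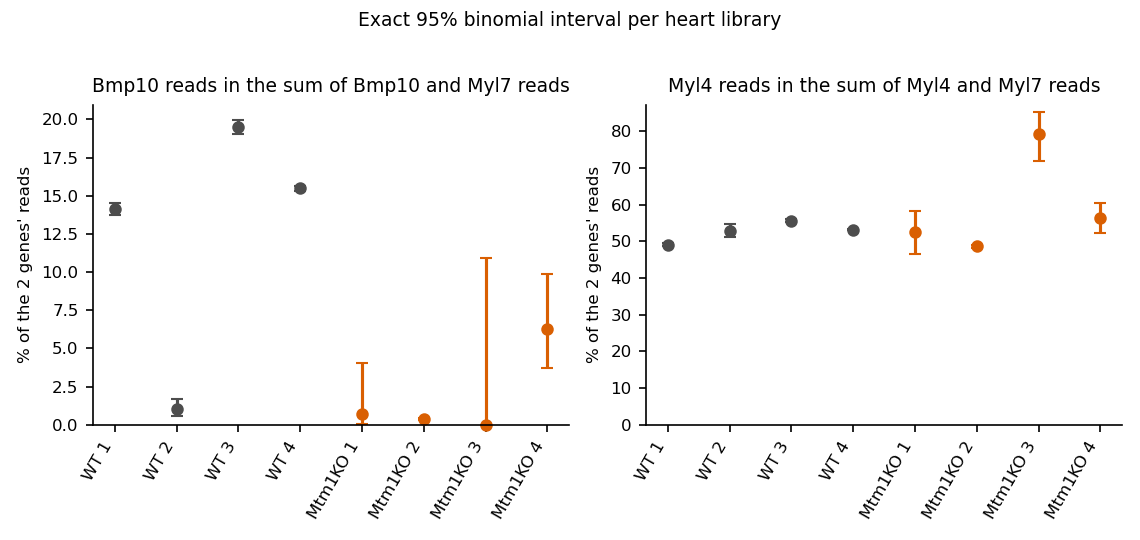
Reads of Bmp10 (left) and of Myl4 (right) as a percentage of the reads of that gene and Myl7 together in each heart, with exact 95% binomial intervals that cover counting error only. The share of Bmp10 was 14.1 to 19.5% in WT hearts 1, 3 and 4 and at most 6.27% in the Mtm1-/y hearts and 1.03% in WT heart 2, while that of Myl4 lay between 48.7 and 56.4% in 7 of the 8 hearts.

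Genes whose pattern over the 8 hearts was most like that of Myl7 were sought among the 10172 genes that averaged 5 CPM or more in these libraries. The closest were Sln, for sarcolipin, an atrial inhibitor of the calcium pump (r = 0.998), and Mybphl, for an atrial myosin-binding protein (r = 0.992), followed by Fgf12 (0.978), Slc36a2 (0.976) and Cnnm3 (0.974). The last pair varied little, from 20.2 to 41.1 CPM and from 14.7 to 23.8 CPM. Sln was at 190, 9.61, 171 and 1050.5 CPM in the WT hearts and at 0.611, 265, 0.104 and 1.94 CPM in the Mtm1-/y hearts, with the same 4 libraries the highest as for Myl7. The lowest correlations were those of Nolc1 and Ccnk (both -0.994), Casp8 and Aimp1 (both -0.985) and Numb (-0.976). Likeness to Myl7 over 8 libraries was thus common, with 1833 of the 10172 genes at an adjusted p under 0.05 by exact permutation, 804 of them positive.

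Other atrial genes had the same tendency as the members without passing the test. Of 14 such genes 13 were tested in the heart, none passed by edgeR, DESeq2 called 1 (Hamp, lower), 3 had an unadjusted p under 0.05, and 11 of 13 log2 fold changes were below 0, with a median of -1.52 against -0.00 over all genes. Sln had -2.42 (adjusted p 0.619 by edgeR), whereas Kcnk3, for a potassium channel, had 0.10 and lay between 173 and 237 CPM in all 8 hearts. Of 8 ventricular genes none passed by edgeR and DESeq2 called 0, with 4 below and 4 above 0 and a median of 0.01. Myl2 had a log2 fold change of 0.33 and Myl3 of 0.04, with 1396 CPM of Myl3 in WT heart 4 against 2208 to 3491 CPM in the other hearts. The ventricular markers summed to 4899 to 12227 CPM in the WT and 10257 to 11002 CPM in the Mtm1-/y hearts.

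The genes that make, sense and break down the natriuretic peptides are known to act in sequence: the proteases corin and furin cut the precursors, NPR1 and NPR2 signal, and NPR3 clears the peptides. Of the 12 on the list 10 were tested and none passed by edgeR or was called by DESeq2, with a median log2 fold change of -0.21 and 1 at an unadjusted p under 0.05. Corin lay between 161 and 410 CPM over the 8 hearts (log2 fold change -0.41, adjusted p 0.565) and Furin had -0.33 (unadjusted p 0.0223, adjusted p 0.546). Of 8 genes of secretory granules 2 were tested, Cpe, for carboxypeptidase E, at -0.20 and Chgb, for chromogranin B, at -0.36. Unlike Nppa, the cleaving enzymes thus stayed within a few-fold across hearts.

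Nppa and Nppb are also cardiac stress genes. Of 9 other stress genes 8 were tested and none passed by edgeR or was called by DESeq2, with 3 at an unadjusted p under 0.05 and a median log2 fold change of -0.22. Ankrd1, for a stretch-responsive sarcomere repeat protein, was at 3092 CPM in WT heart 4 and between 168 and 612 CPM in the other hearts (log2 fold change -1.63, adjusted p 0.546 by edgeR). DESeq2 gave no p for Ankrd1. Myh7, for the slow myosin heavy chain, had -0.28. The skeletal actin Acta1 went the other way, with 1.32 (unadjusted p 0.0417, adjusted p 0.546 by edgeR). Of 13 receptors and targets of Bmp10, 12 were tested and none passed by edgeR or was called by DESeq2, with 4 at an unadjusted p under 0.05, 10 below 0 and a median of -0.35. The co-receptor Eng had -0.39 and the receptor Bmpr2 -0.07. Of 10 conduction genes 8 were tested and none passed by edgeR, with 3 at an unadjusted p under 0.05 and a median of -0.17, while DESeq2 called 1, Shox2, for a transcription factor of the sinoatrial node, with -2.19 (adjusted p 0.0275). Gja1, for the ventricular connexin 43, was at 0.33 and Cntn2, a marker of conduction fibres, at -0.81.

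Markers of other cells moved with the atrial genes in part. Endocardial markers summed to 87.4, 46.9, 101 and 345 CPM in the WT hearts and to 40.6, 99.0, 45.2 and 19.9 CPM in the Mtm1-/y hearts, highest in the libraries highest for Myl7 in each genotype. Mesothelial markers summed to 59.9 to 317 CPM in the WT and 37.3 to 153 CPM in the Mtm1-/y hearts, again highest in WT heart 4 and Mtm1-/y heart 2. Fibroblast markers summed to 1107 to 2621 and 1134 to 1339 CPM. Of 8 white adipocyte markers, 6 were lower in the Mtm1-/y hearts with no overlap between the genotypes, against 4.17% of all genes in either direction. Those 6 had an unadjusted p under 0.05 by edgeR, against 8.88% of all genes. None passed by edgeR, and DESeq2 called those 6 (Adipoq, Plin1, Cidec, Lep, Cfd and Retn), where it called 0.362% of genes. Plin1, which coats the fat droplet, was at 15.7, 4.02, 7.52 and 18.0 CPM in the WT and at 1.53, 1.75, 0.657 and 1.42 CPM in the Mtm1-/y hearts, with a log2 fold change of -3.08 by both tools (adjusted p 0.353 by edgeR and 3.13e-08 by DESeq2). Over the 8 hearts Adipoq, Cidec, Cfd and Plin1 had r of 0.749 to 0.801 with Myl7, and unlike Myl7 they were low in Mtm1-/y heart 2. Hepatocyte markers moved the other way and their sums did not overlap either, with 1.60 to 31.1 CPM in the WT and 35.9 to 112 CPM in the Mtm1-/y hearts. Their unadjusted p values by edgeR ran from 0.00599 to 0.0469, with an adjusted p of 0.546. DESeq2 called 1 of them higher, Fgb (adjusted p 0.0345). Markers of thymocytes summed to at most 1.41 CPM and those of lung epithelium to at most 0.0814 CPM. The part of these cells in the atrial levels was not tested.

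In the gastrocnemius edgeR called Myl4 and Pam, both higher and with no overlap between the genotypes. In the diaphragm the genotypes did not overlap for Myl4, which was higher, and for Gja5, which was lower, but edgeR called neither. Myl4 is also the embryonic myosin light chain of skeletal muscle, which is replaced as fibres mature. In the gastrocnemius Myl4 was at 5.68, 2.96, 5.77 and 6.96 CPM in WT muscles 1 to 4 and at 21.6, 27.5, 12.9 and 22.7 CPM in Mtm1-/y muscles 1 to 4. Every Mtm1-/y muscle was above every WT muscle, and the log2 fold change by edgeR was 1.99 (SE 0.27, adjusted p 0.000759). Pam was at 55.8, 53.0, 62.2 and 54.2 CPM in the WT and at 124, 110.4, 88.6 and 127 CPM in the Mtm1-/y muscles. Its genotypes did not overlap either, where 13.8% of all genes were higher without overlap, and its log2 fold change by edgeR was 1.01 (SE 0.11, adjusted p 0.000326).

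Of the 9 members 5 passed the filter on low counts in the gastrocnemius and 2 were called, both higher, where 4.84% of all genes tested there were called higher. The other tested members were not called, Nr2f2 at -0.34, Gja5 at -0.37 and Dkk3 at -0.45 on the log2 scale, with adjusted p values of 0.0741, 0.150 and 0.241 by edgeR. Without the TMM scaling the median of all genes in this tissue moved by 0.34, Myl4 was at 2.32 and Pam at 1.34, and the values of Gja5, Dkk3 and Nr2f2 were -0.03, -0.12 and -0.00. Pam lay close to the fold threshold: without Mtm1-/y muscle 1 or 4, or WT muscle 2 or 4, its log2 fold change was 0.96 to 0.98 and it was no longer called, while its adjusted p stayed at or under 0.0022 by edgeR. A fit to all 30 libraries, which shares 1 estimate of the spread, gave the same sizes (1.98 and 1.00) but adjusted p values of 0.282 for Myl4 and 0.109 for Pam by edgeR, and called neither. DESeq2 within this tissue called both, with adjusted p values of 4.79e-12 for Myl4 and 4.01e-14 for Pam.

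The natriuretic peptides were almost absent from the gastrocnemius. Nppa had 0 reads in the 4 WT muscles and 11, 2, 12 and 5 reads in the Mtm1-/y muscles. Nppb had 0 reads in the WT muscles and 12, 9, 1 and 0 reads in the Mtm1-/y muscles. Both were under the filter of edgeR; DESeq2, run without it, called Nppa (adjusted p 0.00217), where it called 6.46% of genes. Myl7 had 1 read in WT muscle 4 and none elsewhere, and Bmp10 had none, which allows at most 0.0255 CPM in the WT group and 0.0219 CPM in the Mtm1-/y group.

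Myl4 rose together with other embryonic muscle genes, of which 14 were tested, 8 rose and 1 fell, with a median log2 fold change of 1.40. For the lists in this paragraph, rose and fell mean an adjusted p under 0.05 by edgeR, with no fold threshold. The share of all genes at that looser rule is not given, so these counts are not set against it. DESeq2 with the fold threshold called 6.46% of all genes in this tissue, in either direction. By that rule it called 8 embryonic muscle genes higher and 1 lower, and 1 other atrial gene higher and 1 lower. It also called 5 stress genes, 5 white adipocyte markers and 1 fibroblast marker, all higher. The embryonic myosin Myh3 rose by 3.81, the perinatal myosin Myh8 by 1.05, the acetylcholine receptor subunit Chrna1 and the cell adhesion molecule Ncam1 by 1.77 each (adjusted p for Ncam1 0.000154 by edgeR). The cardiac actin Actc1, which fetal muscle also makes, went the other way, with -2.17 (adjusted p 0.00524 by edgeR). Of the other atrial genes 9 were tested and 2 rose, Sln by 4.42, from 5.19 to 20.1 CPM in the WT to 130 to 464 CPM in the Mtm1-/y muscles, and Kcnk3 by 0.79. Of the stress genes other than the natriuretic peptides 8 were tested, 4 rose and 1 fell, with a rise of 4.52 for Ankrd1 and a fall of the skeletal actin Acta1 to -0.75. Beside the rise of Pam, which fibroblasts and fat cells also contain, 3 of 6 fibroblast and 6 of 8 white adipocyte markers rose in the same muscles. Their part in it was not tested.

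**Figure D5:**
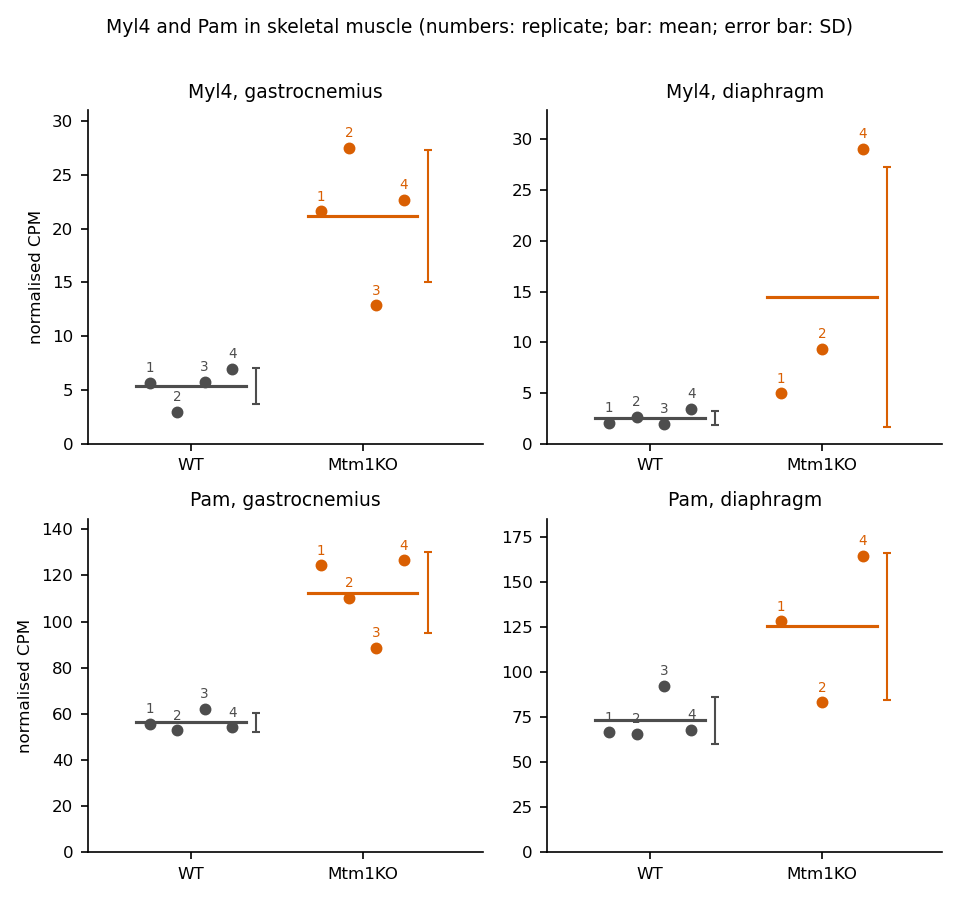
Myl4 and Pam in each gastrocnemius and diaphragm, as normalised CPM, with the mean as a bar and the SD as the error bar (n = 4 per group, n = 3 for the Mtm1-/y diaphragm). Mtm1-/y muscles lie above the WT muscles for both genes in the gastrocnemius and for Myl4 in the diaphragm, where the Mtm1-/y diaphragms spread from 4.97 to 29.1 CPM.

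In the diaphragm Myl4 was at 2.06, 2.66, 1.95 and 3.46 CPM in WT muscles 1 to 4 and at 4.97, 9.39 and 29.1 CPM in Mtm1-/y muscles 1, 2 and 4. The genotypes did not overlap, as in the gastrocnemius, but the Mtm1-/y values were widely spread. The log2 fold change was 2.54 (SE 0.58, approximate 95% interval 1.40 to 3.68, unadjusted p = 0.00329, adjusted p = 0.279 by edgeR), and it was 1.53 without Mtm1-/y diaphragm 4. DESeq2 called Myl4, with an adjusted p of 0.000569, where it called 1.63% of genes. By edgeR none of the 7 members tested was called, against 0.0119% of all genes, and 3 had an unadjusted p under 0.05, against 10.8%.

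Pam was at 66.8, 65.8, 92.7 and 68.1 CPM in the WT and at 128, 83.3 and 165 CPM in the Mtm1-/y diaphragms. WT diaphragm 3 was above Mtm1-/y diaphragm 2, and the log2 fold change was 0.79 (adjusted p 0.336 by edgeR). Gja5 lay between 6.56 and 8.55 CPM in the WT and between 4.48 and 6.25 CPM in the Mtm1-/y diaphragms, without overlap (log2 fold change -0.39, unadjusted p 0.0420). Myl4 and Gja5 were the members whose genotypes did not overlap, 1 higher and 1 lower, where 9.93% of all genes did not overlap. Of 14 embryonic muscle genes tested none passed by edgeR, which had 10 higher at an unadjusted p under 0.05, while DESeq2 called 8, all higher, and the median by edgeR was 2.10. Beside Pam, 4 of 6 fibroblast markers were called higher by DESeq2 in the diaphragm and none passed by edgeR, and their part in it was not tested. Myh3 was at 5.86, 54.6 and 221 CPM in the Mtm1-/y diaphragms, the same order as Myl4.

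Low levels of Bmp10 in the diaphragm went with hepatocyte markers. The diaphragm lies against the liver, and the summed level of hepatocyte markers was 30269.8, 20520.1, 368 and 22741 CPM in the WT and 2275, 38243 and 642 CPM in the Mtm1-/y diaphragms. Bmp10 was at 0.766, 0.936, 0 and 0.974 CPM in the same WT and at 0.167, 1.03 and 0.0214 CPM in the same Mtm1-/y diaphragms. The libraries with most hepatocyte markers were those with most Bmp10, and its part in the level was not tested. Bmp10 had 3.33 to 9.19 CPM in the 7 livers. WT heart 2 and 3 of the 4 Mtm1-/y hearts had less than every liver.

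No member was called in the liver by edgeR or DESeq2, which called 0 and 0.0782% of genes. None of the 7 members tested had an unadjusted p under 0.05 by edgeR, against 4.24% of all genes. The log2 fold changes lay between -0.69 and 0.46. Nr2f2 was at 23.2 to 43.0 CPM and Pam at 16.1 to 32.7 CPM, while Nppa and Nppb had 0 reads in the 3 WT livers.

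The effect of genotype was compared between tissues by the difference of the log2 fold changes. Between heart and gastrocnemius 1 member was called, Pam, with a difference of -2.16 (SE 0.69, adjusted p 0.0391 by edgeR), where 7.73% of all genes were called. DESeq2, which called 7.99% of genes, called 2 members, Nppa and Nppb, whose reads were 0 in WT gastrocnemius. The call of Pam was lost without any 1 of 11 of the 16 libraries (adjusted p 0.0517 to 0.0781 by edgeR), all but WT hearts 1, 2 and 3, Mtm1-/y heart 2 and Mtm1-/y gastrocnemius 3, and the difference was between -2.64 and -1.20; by DESeq2 it was -2.10 with an adjusted p of 0.0514. Myl4 had a difference of -4.57 (SE 2.09, adjusted p 0.133 by edgeR), which became -9.91 with an adjusted p of 0.00100 without Mtm1-/y heart 2. Dkk3 had -2.38, and -5.61 with an adjusted p of 0.00769 by edgeR without the same heart. Without WT heart 4 the difference was -2.91 for Myl4.

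Between heart and diaphragm edgeR called no member (5 at an unadjusted p under 0.05, as for 10.6% of genes), where it called 0.00573% of genes, and DESeq2 called none, where it called 0.955%. Between gastrocnemius and diaphragm the change of Myl4 differed by -0.53 (adjusted p 0.774 by edgeR), with a range of -0.94 to 0.49 over the fits that left out 1 library, and no member was called by edgeR or DESeq2, which called 0.234 and 1.12% of genes.

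Last, the WT tissues were compared to place the members. Of the 9 members 8 were called higher in WT heart than in WT gastrocnemius, diaphragm and liver alike, where 17.7, 8.83 and 30.6% of all genes were called higher. Against the gastrocnemius the WT heart had at least 199265-fold more Nppa, at least 6028-fold more Nppb and at least 10116-fold more Bmp10, taking 3 reads over the group as the floor for a tissue with none. Myl4 was 292-fold higher than in the gastrocnemius and 617-fold higher than in the diaphragm, and Pam 41.3-, 31.7- and 79.8-fold higher than in gastrocnemius, diaphragm and liver. Gja5 was higher by 3.95-, 3.71- and 14.6-fold. These folds rest in part on WT heart 4: without it they were at least 54917-fold for Nppa, at least 4582-fold for Nppb and at least 3444-fold for Bmp10 against the gastrocnemius. Myl4 was then 92.9- and 196-fold higher than in gastrocnemius and diaphragm, Pam 21.1-, 16.2- and 40.8-fold and Gja5 2.31-, 2.17- and 8.56-fold higher than in the 3 other tissues, and 8 members were still called higher than in each. Nr2f2 was the exception, with log2 differences of 0.03, 0.55 and -0.21, so that its level in heart was not set apart from that in the other 3 tissues. Between WT gastrocnemius and WT diaphragm, 1 member was called by edgeR, Myl7 (adjusted p 0.0476), on 1 read against 80, where 26.8% of all genes were called.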

How the data were processed

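Whole-tissue RNA of 30 samples was sequenced as polyA-selected, stranded (dUTP) libraries. The authors deposited raw read counts per gene; the submitters' processing notes name bcl2fastq 2.17.1.14, cutadapt 1.10, STAR 2.5.3a, HTSeq 0.6.1p1 and mm10, and the study's methods name Ensembl 96 and the union mode. Reads shared by overlapping genes are not counted in this mode. The groups came from the labels.

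Genes were tested with edgeR 4.0.16 (R 4.3.3; quasi-likelihood test, TMM, filterByExpr with a count minimum of 10) within each tissue, Mtm1-/y against WT, and for differences between tissues and between WT tissues. P values were adjusted by the Benjamini-Hochberg method over all genes tested; a call needed a log2 fold change above 1 or below -1 beside an adjusted p under 0.05. Normalised CPM used TMM factors over the 30 libraries, and the log2 scale added 1. Gene lengths, the union of all annotated exons, came from GENCODE M21 and promoters from RefSeq. Tests are two-sided, and exact permutation tests used all 40320 orders of 8 hearts. On simulated heart counts, 73% of genes changed by 1 and 98% of those changed by 2 on the log2 scale were recovered among 15238 genes. Recovery there meant an adjusted p under 0.05 by edgeR, without the fold threshold. Each simulated gene had the spread usual for its level, and no heart was made an outlier. The members were all among the 1000 most variable genes in heart, so these shares do not apply to them.

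The members and gene lists were chosen with earlier results of these data known. The named genes are the 9 members, Mtm1, from each list the up to 4 passing genes of smallest p in the tissue described or the 2 most abundant where none passed, and the 5 genes most and least like Myl7. Others were chosen after their values were seen: Actc1, Hamp, Cacna2d2, Shox2, Fgb, the adipocyte genes, the heart values of Acta1 and the diaphragm values of Myh3. Alternatives were DESeq2 1.42.0, its size factors in edgeR, no filter, a fit to all 30 libraries, a replicate block, Myl7 as a covariate, leaving out each library and, chosen after seeing the data, library totals with no TMM and the WT heart means without WT heart 4. Same-numbered samples within a tissue did not deviate together, so the numbers were not taken to pair them. Within a tissue, P values measure the spread between samples of different mice, which includes any difference in dissection. The labels do not say whether different tissues came from the same mice. Tests between tissues took all libraries as independent.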

Additional observations from a re-analysis of the deposited data

Results flagged for a closer look

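Of 38 groups of 4 libraries in which a member averaged at least 1 CPM, 14 had a library farther from the others than Dixon's 95% critical value allows. Chance gives about 1 such group in 20 only for independent, normally distributed values. Here the test used skewed CPM values, and the members were read from the same libraries, so the count is not set against that rate. Most were the same 2 hearts. WT heart 4 stood above the other WT hearts for Nppa (16140.3 CPM), Myl4 (4764 CPM), Myl7 (4198 CPM), Pam (5744 CPM) and Nr2f2 (43.7 CPM). Mtm1-/y heart 2 stood above the other Mtm1-/y hearts for Nppa (2638 CPM), Myl4 (1030.1 CPM), Myl7 (1087 CPM), Bmp10 (3.84 CPM), Gja5 (49.0 CPM), Dkk3 (106 CPM) and Pam (1936 CPM). The other cases were Pam in WT diaphragm 3 (92.7 CPM) and Gja5 in Mtm1-/y liver 3 (2.21 CPM).

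The genotype difference of Pam was of opposite sign in heart and gastrocnemius, and the difference between the tissues passed its test at -2.16 on the log2 scale (adjusted p 0.0391 by edgeR), with the 4 Mtm1-/y gastrocnemius muscles all above the WT muscles and the hearts of both genotypes overlapping. The call was lost in 11 of the 16 fits that each left out 1 library.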

How the results depend on the processing

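Groups held 4 or fewer mice, and the intervals of Myl4 and Myl7 include both directions. DESeq2 called 1 member in heart (Bmp10), 3 in gastrocnemius (Nppa, Myl4 and Pam) and 1 in diaphragm (Myl4). It called 2 between heart and gastrocnemius (Nppa and Nppb, which have 0 reads in WT gastrocnemius) and 2 between WT gastrocnemius and diaphragm, where no filter on low counts left 0. The edgeR fit to all 30 libraries called 0 members in gastrocnemius. Leaving out 1 library at a time gave 1 to 2 calls in gastrocnemius, 0 to 3 between heart and gastrocnemius and 0 to 2 between WT gastrocnemius and diaphragm. With a replicate block 0 members were called between heart and gastrocnemius (Pam -1.84, adjusted p 0.140 by edgeR), and Myl4 and Pam stayed called in gastrocnemius. The correlations of same-numbered libraries ran from -0.593 to 0.316 in heart, -0.0165 to 0.105 in gastrocnemius, -0.698 to 0.510 in diaphragm and -0.0191 to 0.413 in liver, and not every library correlated best with its own number, so the block rests on shared numbers only. With Myl7 as a covariate the heart values of Gja5 (1.03), Pam (0.34) and Nr2f2 (0.041) changed sign. Leaving out 1 library, signs changed for Nppb (-0.63 to 0.15) and Gja5 (-1.27 to 0.39) in heart, Nr2f2 in diaphragm (-0.32 to 0.10), Myl4 (-0.20 to 0.33), Bmp10 (-0.45 to 0.062), Dkk3 (-0.24 to 0.090) and Pam (-0.20 to 0.067) in liver, Myl4 between gastrocnemius and diaphragm (-0.94 to 0.49), and the correlation of Nppb with Myl7 (-0.716 to 0.0934). The correlation of Nr2f2 with Myl7 was 0.666 (adjusted exact permutation p 0.0762) without Mtm1-/y heart 1. Of the values for single genes, 572 kept their direction and side of the threshold, 18 reversed direction, 20 lost the call and 4 gained it. Where no cause is named, the cause was not tested.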
